A study of Ovis aries with 32 samples.

Results

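The enzymes described here are the cytochromes P450 of families 1 to 4 and the UDP-glucuronosyltransferases (UGT), glutathione S-transferases (GST) and sulfotransferases (SULT) of the sheep. They were taken by gene symbol alone, without reference to their values. The symbols were those that begin with CYP1, CYP2, CYP3 or CYP4 and a further letter, or with UGT1, UGT2, GSTA, GSTM, GSTP, GSTT, GSTO, GSTZ, MGST or SULT. The rule gave 34 of the 30722 rows of the table, of which 17372 carried a symbol. They were 15 P450 genes, 2 UGT genes, 6 cytosolic GST genes, 3 microsomal GST genes (MGST) and 8 SULT genes. No symbol among them was repeated.

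The study fed male Tan sheep, a fat-tailed breed, aged 3 months, on 1 of 2 diets for 60 d after 10 d of adaptation. The control diet (CON) was a basal pellet, and the other diet (SA) was the same pellet with succinic acid, a metabolite of the tricarboxylic acid cycle, making up 1% of dry matter. Of 24 sheep, 12 per diet, 4 per diet were sequenced, and liver, tail fat and tissue labelled hypothalamus and pituitary gave 8 groups of 4 libraries, 32 in all. The question put by the design is how the added succinic acid bears on gene expression in these tissues.

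P450 enzymes are haem proteins of the endoplasmic reticulum that put an oxygen atom into drugs, plant compounds, steroids, vitamins and fatty acids, with electrons passed on by a reductase. UGT, GST and SULT enzymes then attach glucuronic acid, glutathione or sulfate, which makes the products soluble for bile and urine. Hepatocytes are the main site of this work, many of the genes respond to receptors that sense foreign chemicals or hormones, and several members act on the body's own compounds instead.

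The values are TPM, which scale each transcript's reads for its length and then to a fixed total within each library, so levels may be set beside each other between genes, while the sequencing depth is unknown. Because TPM is a share, transcripts that take more of a library lower the values of the rest. In liver, transcripts encoded by the mitochondrial genome took 20.2% to 27.9% of TPM on CON and 52.5% to 71.0% on SA, without overlap. The summed TPM of 14 hepatocyte markers was 121054 to 131867 on CON and 10261 to 37796 on SA in liver, with 12 of the 14 markers lower by the test used below. Markers of endothelium (8 of 9) and macrophages (7 of 8) were also lower there. These counts stand beside 59.1% of all 11582 genes tested in liver that were lower. In tail fat the mitochondrial share ran from 22.6% to 70.8% on CON and from 25.7% to 50.7% on SA. In the libraries labelled pituitary it ran from 41.3% to 45.02% on CON and from 36.7% to 68.8% on SA. These shares move with the results below, and their part in them was not tested. In bulk tissue, fewer cells of a type and less RNA per cell cannot be told apart. Liver libraries on CON held hepatocyte markers at high levels and tail fat held adipocyte markers (summed TPM 13184 to 78341 on CON). The libraries labelled hypothalamus and pituitary held neuronal markers, with SNAP25 at a CON mean of 731 and 1155 TPM, while the defining hormones found by name were low. The 8 hypothalamic hormone genes found by name, of 10 listed, summed to 5.98 to 15.3 TPM in the former. The 6 anterior pituitary hormone genes found by name, of 9 listed, summed to 2.85 to 5.90 TPM in the latter. Listed hormones that stand on no named row are not in these sums. Both tissues are therefore called by their labels.

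On the control diet the members were most abundant in liver. A CON mean of 100 TPM or more was reached by 13 members in liver and by 3 in each of the other tissues, and 10 TPM or more by 17 members in liver, 10 in tail fat, 6 in hypothalamus-labelled tissue and 9 in pituitary-labelled tissue. Of the 27 members at 1 TPM or more in some tissue, 14 had their highest CON mean in liver, 5 in tail fat, 1 in hypothalamus-labelled tissue and 7 in pituitary-labelled tissue. The other 7 members stayed under 1 TPM in each tissue's CON mean, and CYP4F21 was listed at 0 in all 32 libraries.

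**Figure D1:**
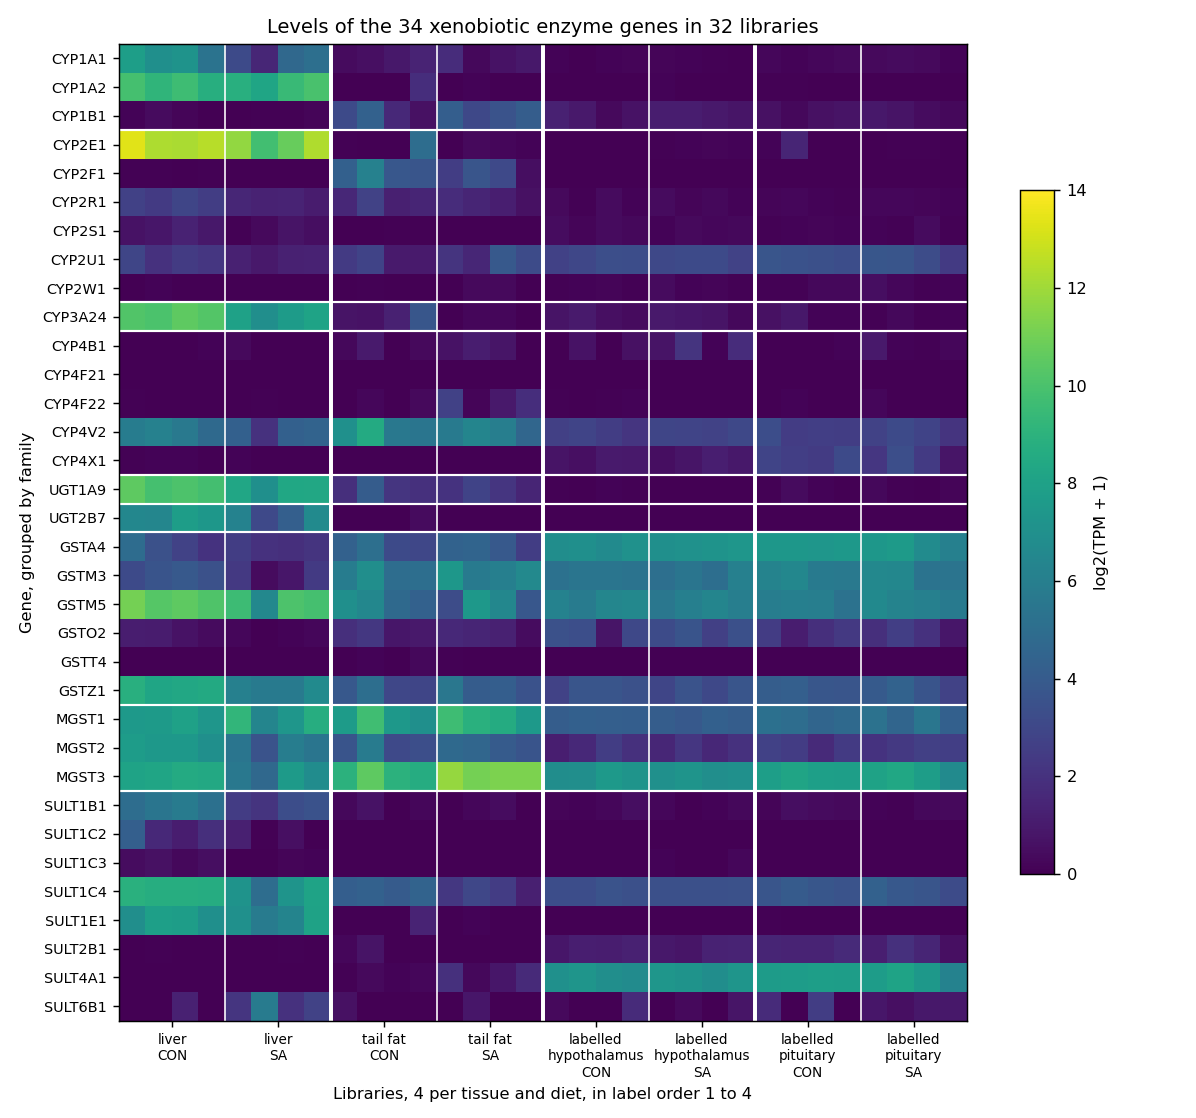
Levels of the 34 members (rows) in the 32 libraries (columns, by tissue and diet), as log2(TPM + 1) on the colour scale. A block of CYP, UGT and SULT1 genes is bright in liver and dark elsewhere, SULT4A1 and GSTA4 are bright in the brain-labelled tissues, and CYP2F1 is seen in tail fat.

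CYP2E1 (ENSOARG00020010172), which oxidises ethanol, acetone and other small molecules, was the most abundant member. It stood at 10707, 5003, 4861 and 5851 TPM in the 4 liver CON libraries, and its CON mean of 6605 ± 2769 TPM (SD, n = 4) was 854-fold that of tail fat, the next tissue, whose mean rests on 1 library, CON 4, at 30.9 TPM beside 0 to 0.05 TPM in the other 3. It made up 66.3% to 81.5% of the summed TPM of the 15 P450 members in the liver CON libraries. P450 genes that stand on no named row, such as CYP2A6 and CYP2D6, are not in that sum. Rows without a name held 19.9% to 25.7% of TPM in those libraries. GSTM5 followed at 1503 ± 431 TPM in liver, then CYP3A24 at 1232 ± 165 TPM and UGT1A9 at 1097 ± 251 TPM (SD, n = 4 each). CYP3A24 is a CYP3A enzyme, a subfamily that oxidises steroids and many drugs, and UGT1A9 glucuronidates phenols. CYP1A2, an oxidase of planar aromatic compounds, was at 691 ± 228 TPM in liver and at 0 to 0.05 TPM in the CON libraries of the other tissues apart from tail fat CON 4, at 2.51 TPM. SULT1C4 (432 ± 23.2 TPM), GSTZ1 (364 ± 67.5 TPM) and SULT1E1, the oestrogen sulfotransferase (178 ± 65.0 TPM), were further members with their highest level in liver (SD, n = 4 each).

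Liver was compared with each other tissue on CON by limma on log2(TPM + 1), a scale that understates the changes of genes of low level, with p-values adjusted by Benjamini-Hochberg over all 15929 genes tested. Of 27 members tested, 14 were higher and 4 lower in liver than in tail fat, where 23.3% and 20.8% of all genes were called higher and lower. Of the 27, UGT2B7, SULT1B1 and SULT1C2 reached 1 TPM on CON in liver libraries alone and CYP2F1 in tail fat libraries alone. CYP2E1, CYP3A24, CYP1A1, CYP1A2 and SULT1E1 reached it in fewer than 4 CON libraries outside liver, as did CYP4X1 outside pituitary-labelled tissue. All of these passed the filter on low values, 1 TPM in 4 or more libraries, through the tissue where they are high. Against hypothalamus-labelled tissue 17 members were higher and 6 lower in liver (16.7% and 51.5% of all genes), and against pituitary-labelled tissue 16 were higher and 7 lower (14.8% and 58.3% of all genes). CYP2E1 exceeded tail fat by 11.34 on the log2 scale (SE 0.83) with a limma adjusted p of 9.87e-09. UGT1A9 exceeded it by 7.57 and CYP3A24 by 8.64. Without CON 1 or without CON 2 of tail fat, the count lower in liver than in tail fat was 2 in place of 4.

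The members that were lower in liver than elsewhere form a small second set. SULT4A1, a sulfotransferase of neurons with no well-established substrate, was lower in liver than in hypothalamus-labelled tissue (−7.004 on the log2 scale, liver minus the other tissue) and than in pituitary-labelled tissue (−7.77). GSTA4, which conjugates the lipid peroxidation product 4-hydroxynonenal to glutathione, was lower as well (−3.59 and −4.10). GSTM3, GSTO2, SULT2B1 and CYP4X1 were also lower in liver than in both of these tissues, and CYP2U1, a fatty acid hydroxylase, was lower than in pituitary-labelled tissue (−1.08). Against tail fat the 4 were CYP2F1 (−4.43), CYP1B1 (−2.23), GSTM3 (−2.16) and MGST3 (−0.97, limma adjusted p = 0.0204). CYP2F1, an oxidase of naphthalene best known from lung, was at 11.8 to 70.4 TPM in the tail fat CON libraries, at 0 to 0.05 TPM in the liver CON libraries and listed at 0 in the brain-labelled tissues.

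In liver the SA diet went with lower levels of most members. Among the 21 members that reached 1 TPM in 4 or more of the 8 liver libraries, 15 fell and 1 member, SULT6B1, rose by limma at an adjusted p under 0.05, while 5 did not pass and 13 lay below the filter. Over all 11582 genes tested, 59.1% were lower and 5.21% higher, so the members' 71.4% lower is to be read against a liver in which most genes tested were lower. The members' median change was −1.85 on the log2(TPM + 1) scale and that of all genes was −0.83, and 17 of the 21 members lay below the median of all genes. The groups did not overlap for 13 members that were lower on SA and for SULT6B1, which was higher, against 54.2% and 4.07% of all genes. The fall was seen in 6 of 7 P450 genes tested, both UGT genes, 2 of 4 cytosolic GST genes, 2 of 3 MGST genes and 3 of 5 SULT genes. The members' summed level went from 13206 ± 3627 TPM on CON to 5542 ± 3044 TPM on SA (SD, n = 4 each). After removal of mitochondrial and ribosomal transcripts and rescaling, the same sum was 17702 ± 4286 on CON and 14282 ± 5201 on SA, and the groups overlapped.

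**Figure D2:**
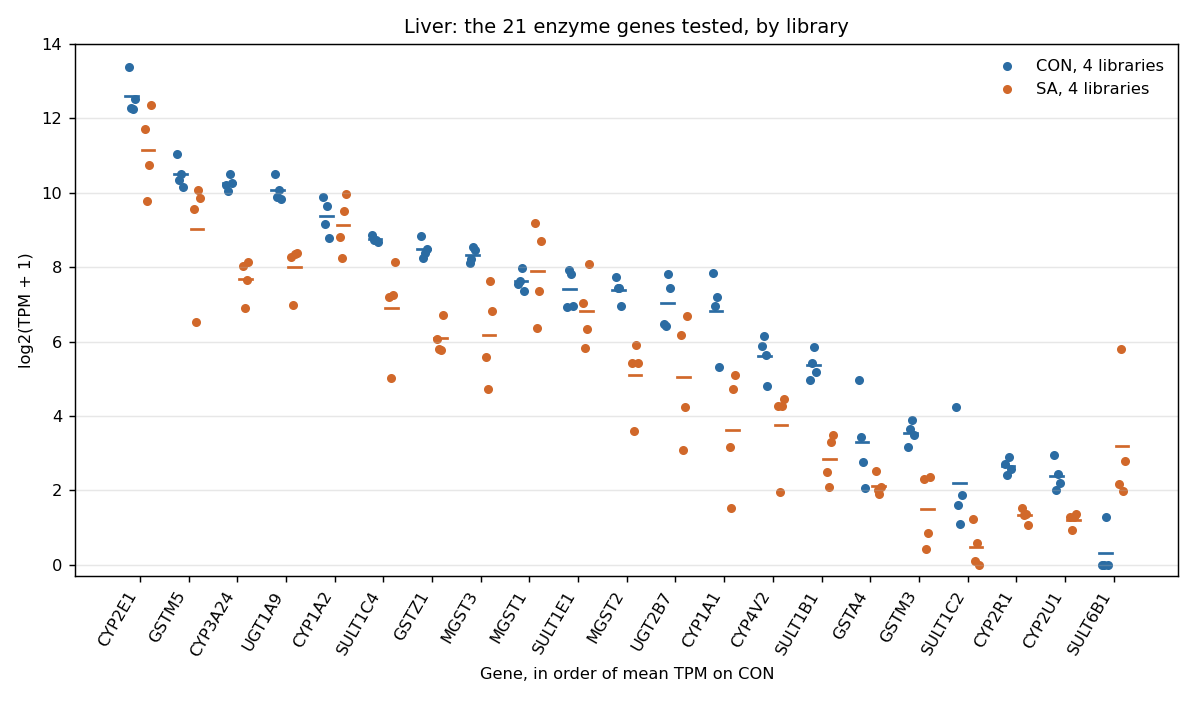
Level of each of the 21 members tested in liver, as log2(TPM + 1), with 1 point per library and a line at the mean of each diet. The SA points of CYP3A24, UGT1A9, GSTZ1 and SULT1B1 lie below all of their CON points, those of CYP1A2 and MGST1 overlap CON, and those of SULT6B1 lie above.

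Among the P450 genes of liver, CYP3A24 (ENSOARG00020029758) stood at 1178, 1059.9, 1453 and 1238 TPM in the CON libraries and at 261, 118, 202 and 280.2 TPM in the SA libraries. Each SA library lay far below each CON library, and the mean was 5.72-fold lower. The change was −2.58 (SE 0.34, limma adjusted p = 0.000184). CYP1A1 (ENSOARG00020023825), an oxidase of polycyclic aromatic compounds under the control of the aryl hydrocarbon receptor, was at 229.7, 122, 147 and 38.6 TPM on CON and at 7.98, 1.89, 25.7 and 33.7 TPM on SA. The lowest CON library lay just above the highest SA library, the mean was 7.75-fold lower on SA, and the change was −3.19 (SE 0.82, limma adjusted p = 0.00762).

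CYP1A2 (ENSOARG00020023790) lies in the same subfamily but did not pass. It was at 946, 569.5, 807 and 442 TPM on CON and at 449, 303, 727 and 1000.4 TPM on SA. The groups overlapped across most of their range, with a change of −0.24 and a limma adjusted p of 0.643. The ratio of CYP1A2 to CYP1A1 within a library, a measure chosen after the values were seen and one that does not depend on the scaling of the library, was 4.12, 4.66, 5.50 and 11.5 on CON and 56.3, 160, 28.3 and 29.7 on SA, with no overlap. The 2 genes are close paralogs, and reads that fit both could have been split between them in the authors' estimates.

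CYP2E1 was at 3363, 883, 1723 and 5223 TPM on SA. The highest SA library lay among the CON libraries given above, the mean was 2.36-fold lower, and the change was −1.46 (SE 0.56, limma adjusted p = 0.0421). This call passed in 2 of 8 fits that left out 1 library, without SA 1 (adjusted p = 0.0402) or without SA 4 (0.0122). It was lost without CON 1 (0.112), CON 2 (0.0620), CON 3 (0.0592), CON 4 (0.0749), SA 2 (0.0626) or SA 3 (0.0950). The share of CYP2E1 in the summed TPM of the P450 members was 63.8% to 82.0% on SA, which overlapped that on CON. The summed TPM of the P450 members was 8725 ± 2955 on CON and 3669 ± 2240 on SA (SD, n = 4 each). After that rescaling it was 11671 ± 3532 and 9425 ± 3946 with overlap. Set against the hepatocyte marker sum of the same library, it was 5.41% to 9.96% on CON and 8.34% to 20.5% on SA, and these ranges overlapped. All members together were 8.604% to 14.1% of that marker sum on CON and 15.0% to 28.6% on SA, higher on SA without overlap, so the hepatocyte markers were lower on SA by more than the members' sum.

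The P450 genes of low level that act on the body's own substrates fell as well in the values as deposited. CYP2R1, the liver's vitamin D 25-hydroxylase, was at 5.59, 4.30, 6.46 and 4.92 TPM on CON and at 1.87, 1.55, 1.60 and 1.11 TPM on SA. The groups were well apart, with a change of −1.32 (SE 0.18, limma adjusted p = 0.000207). CYP2U1 went from 4.45 ± 1.63 to 1.34 ± 0.29 TPM (−1.19, limma adjusted p = 0.00132). CYP4V2, an omega-hydroxylase of fatty acids, went from 50.9 ± 18.0 to 15.3 ± 8.33 TPM (−1.87, limma adjusted p = 0.0146; SD, n = 4).

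Both UGT genes fell. UGT1A9 (ENSOARG00020006230) was at 1459.6, 945, 1069.5 and 914 TPM on CON and at 307, 126, 324 and 333 TPM on SA. The SA libraries lay together below the CON libraries, the mean was 4.03-fold lower, and the change was −2.08 (SE 0.38, limma adjusted p = 0.00110). In the RefSeq annotation of the assembly ARS-UI_Ramb_v3.0, 4 other UGT1A genes overlap UGT1A9, so its values may hold reads of genes that share its exons. UGT2B7, which glucuronidates steroids and opioids, was at 87.3, 85.2, 223 and 171 TPM on CON and at 71.7, 7.44, 17.8 and 102 TPM on SA. The groups overlapped, and the change of −1.99 (limma adjusted p = 0.0434) passed in 2 of 8 fits that left out 1 library, without SA 1 (0.0286) or SA 4 (0.0125). It was lost without CON 1 (0.0536), CON 2 (0.0535), CON 3 (0.107), CON 4 (0.0917), SA 2 (0.0887) or SA 3 (0.102).

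Of the cytosolic GST genes, GSTZ1 (ENSOARG00020004246), the maleylacetoacetate isomerase of tyrosine breakdown, had the smallest p of the members in liver. It was at 460.2, 304, 336 and 356 TPM on CON and at 66.2, 54.3, 53.8 and 104 TPM on SA. The groups were well apart. The change was −2.41 (SE 0.30, limma adjusted p = 0.000145). GSTM3, a mu-class transferase, went from 10.9 ± 2.50 to 2.32 ± 2.02 TPM (−2.06, limma adjusted p = 0.00269). Its abundant relative GSTM5 (ENSOARG00020007664) was at 2123, 1288, 1454 and 1149 TPM on CON and at 761, 91.5, 1088 and 930.5 TPM on SA. These groups did not overlap, but SA 2 lay far below the other SA libraries and the change of −1.50 did not pass (limma adjusted p = 0.0938). Of 8 fits that left out 1 library it passed in 1, without SA 2, at −0.67 with an adjusted p of 0.0463. GSTA4 was at 30.1, 9.92, 5.77 and 3.17 TPM on CON and at 2.74 to 4.76 TPM on SA, with a change of −1.18 (limma adjusted p = 0.0760), which passed in 1 of 8 fits that left out 1 library. Without CON 4 the change was −1.59 (adjusted p = 0.0170), and without CON 1, the highest library, it was −0.63 (0.127).

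The 3 microsomal transferases are membrane proteins that conjugate or reduce lipid peroxides, and MGST2 and MGST3 are also known for leukotriene C4 synthesis. MGST3 (ENSOARG00020001904) was at 276, 299, 369 and 353 TPM in the liver CON libraries and at 47.4, 25.3, 197 and 112 TPM in the SA libraries. Each SA library was below each CON library, with a change of −2.14 (SE 0.56, limma adjusted p = 0.00751). That call was lost with quantile normalization (−1.17, adjusted p = 0.0797) and with mitochondrial and ribosomal transcripts removed (−1.09, 0.117). MGST2 went from 170.1 ± 36.0 to 38.8 ± 20.2 TPM (SD, n = 4; −2.30, limma adjusted p = 0.00212). MGST1 (ENSOARG00020037921) was at 186, 196, 253 and 164 TPM on CON and at 588, 82.2, 163 and 414 TPM on SA. Its SA libraries spread to both sides of CON, and the change of 0.28 did not pass (limma adjusted p = 0.677). The ratio of MGST1 to MGST3 within a library, also chosen after the values were seen, was 0.464 to 0.684 on CON and 12.4, 3.25, 0.831 and 3.70 on SA in liver, without overlap.

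Sulfotransferases of liver moved in both directions. SULT1B1, which sulfates phenols and thyroid hormones, was at 30.6, 42.2, 56.6 and 35.4 TPM on CON and at 4.62, 3.26, 8.95 and 10.3 TPM on SA. The groups were far apart, the mean was 6.07-fold lower, and the change was −2.51 (SE 0.35, limma adjusted p = 0.000239). SULT1C4 (ENSOARG00020001960) was at 464, 427, 427 and 409 TPM on CON and at 147, 31.5, 152 and 282 TPM on SA. The CON libraries lay close together and the SA libraries spread below them (−1.85, limma adjusted p = 0.0172). That call was lost with quantile normalization (−0.92, limma adjusted p = 0.0874) and with mitochondrial and ribosomal transcripts removed (−0.79, 0.164). SULT1E1 (ENSOARG00020001244) was at 120.4, 242, 225 and 123 TPM on CON and at 131, 55.4, 79.3 and 269.6 TPM on SA. These groups overlapped, with a change of −0.59 and a limma adjusted p of 0.314.

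The sulfotransferase that rose was SULT6B1 (ENSOARG00020000852), a little-studied member of the family. It was listed at 0 in 3 of the 4 liver CON libraries and at 1.45 TPM in CON 3, and it was at 3.52, 55.0, 2.98 and 5.91 TPM in the SA libraries. The SA libraries were all above CON, with SA 2 far above the rest, and the change was 2.87 (SE 0.78, limma adjusted p = 0.0101), from 1.45 TPM or less on CON. SULT1C2 was at 17.9, 2.06, 1.16 and 2.65 TPM on CON and at 1.34, 0.07, 0.50 and 0 TPM on SA, a change of −1.73 (limma adjusted p = 0.0344). That call held in 4 of 8 fits that left out 1 library and was lost without CON 4 (0.0506), SA 2 (0.0781), SA 3 (0.0553) or SA 4 (0.0773). SULT6B1 and SULT1C2 each passed the filter on low values through the diet in which they were higher and 1 library of the other.

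How far the liver falls exceed the shift of all genes was examined with alternative scalings. Quantile normalization moved the median change of all genes from −0.83 to −0.09, and rescaling after removal of mitochondrial and ribosomal transcripts moved it to 0.00. The all-gene split of lower to higher calls went from 6842 and 603 to 2440 and 1886 with quantile normalization and to 1759 and 1988 with the removal. Of the members, 7 were lower and 2 higher with quantile normalization, and 6 lower and 2 higher with the removal. Of the 16 calls, 7 held under both scalings and in all 8 fits that left out 1 library, namely the falls of CYP3A24, GSTM3, GSTZ1, MGST2, SULT1B1 and UGT1A9 and the rise of SULT6B1. The share of all called genes that met the same terms was not counted, so the 7 cannot be set against it. MGST1 rose under both scalings, by 1.28 (limma adjusted p = 0.0218) and 1.35 (0.0274). CYP1A2 turned from −0.24 to 0.69 and 0.83 without passing (limma adjusted p = 0.124 and 0.0848), and SULT1E1 from −0.59 to 0.43 and 0.48. CYP2E1 was at −0.72 and −0.38 (limma adjusted p = 0.321 and 0.473) and CYP1A1 at −2.27 and −2.26 (0.0502 and 0.0606).

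**Figure D3:**
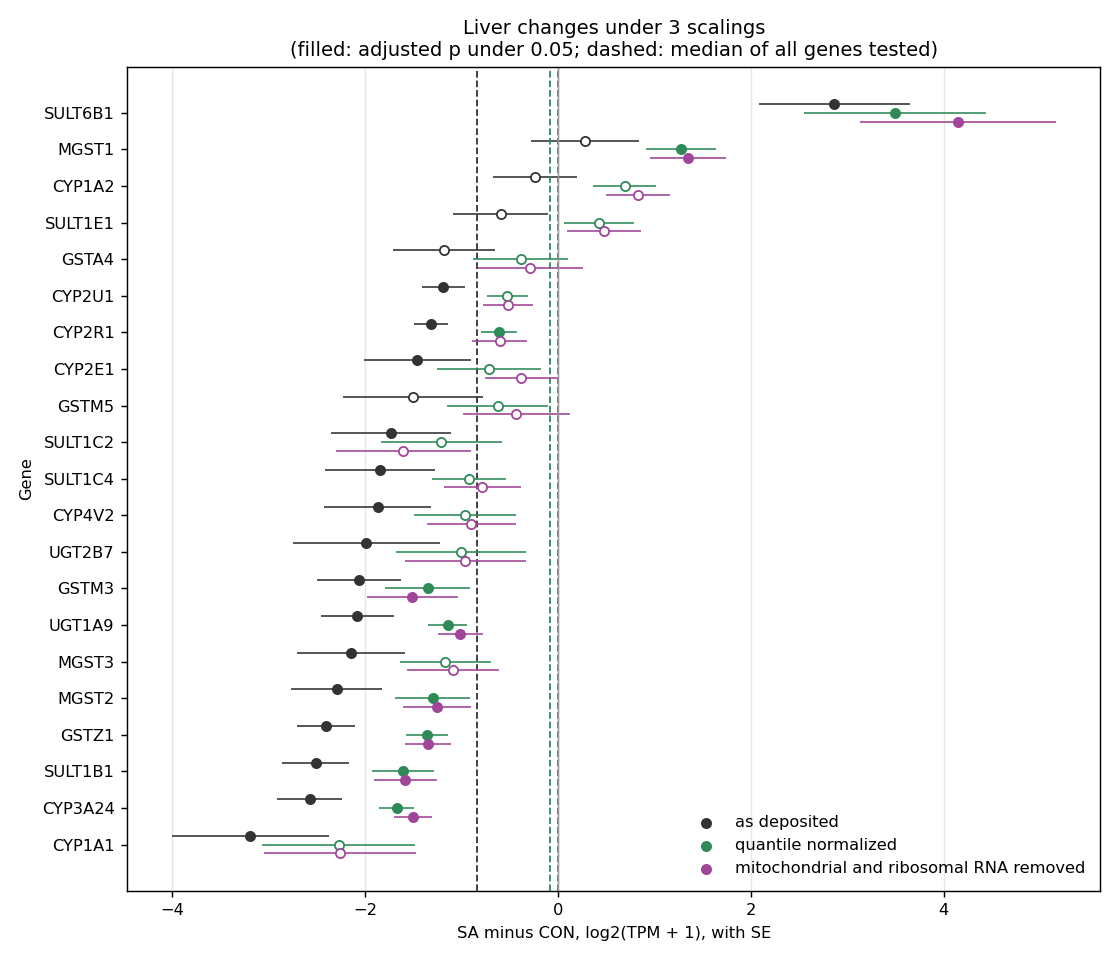
Change in liver (SA minus CON, log2(TPM + 1), ± SE) of the 21 members under 3 scalings, with filled symbols where the limma adjusted p was under 0.05 and a dashed line at the median of all genes. GSTZ1, CYP3A24, SULT1B1 and UGT1A9 stay filled below 0 under each scaling, and MGST1 is filled above 0 under 2 of them.

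The genes that regulate and supply these enzymes in liver were taken from lists chosen with earlier results of these data known, so their directions are description. They are to be read against the 59.1% of all genes that were lower in liver and the all-gene median of −0.83. Among nuclear receptors and other sensors, 7 of 12 tested genes were lower and 0 higher by limma (median −1.10). HNF4A, a hepatocyte transcription factor, went from 77.4 to 30.0 TPM (−1.30), the pregnane X receptor NR1I2 from 71.9 to 34.3 TPM (−1.04) and the aryl hydrocarbon receptor AHR from 11.4 to 3.99 TPM (−1.26), with limma adjusted p of 0.00615, 0.0380 and 0.0268. CEBPB stood at 52.2 and 53.0 TPM, a change of −0.08, and NR1I3 was not analysed here. Of P450 electron donors and genes of haem supply, 6 of 14 were lower and 0 higher (median −1.05). The P450 reductase POR, at 166 and 141 TPM (−0.46, limma adjusted p = 0.451), did not pass. Neither did cytochrome b5, CYB5A, at 951 and 632 TPM (−0.64, 0.215), or PGRMC1, at 770.2 and 423 TPM (−1.02, 0.0689), a haem-binding partner of P450 enzymes.

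Other enzymes that oxidise or hydrolyse foreign compounds were lower for 13 of 21 genes tested and higher for 0 (median −1.31), where 59.1% of all genes were lower. They include the epoxide hydrolase EPHX1 (1261 to 186 TPM, −2.97), the flavin monooxygenase FMO1 (758 to 169 TPM, −2.34) and the paraoxonase PON1 (899.5 to 272 TPM, −1.98). Genes that supply the cosubstrates of conjugation were lower for 8 of 13 and higher for 0 (median −1.14). PAPSS2, which makes the sulfate donor of the SULT enzymes, went from 121 to 35.5 TPM (−1.78, limma adjusted p = 0.000653), while AHCY, which clears the product of methyl transfer, was at 256 and 194 TPM (−0.70, 0.294). Other transferases were lower for 2 of 7, among them ACSM1 of the glycine conjugation route (595 to 64.6 TPM, −3.15), while GLYAT, the transferase of that route, was at 331 and 301 TPM (−0.53, limma adjusted p = 0.505). Carriers of drugs and bile acids were lower for 8 of 10 (median −1.72), with SLC10A1 at 245 and 85.7 TPM (−1.74) and SLCO2B1 at 169 and 29.8 TPM (−2.61). In liver 44 of the 77 genes tested in these 6 lists were lower, a share close to the 59.1% over all genes. None (0) was higher by limma, and 0 had an unadjusted p under 0.05 in the higher direction. In the other tissues 0 genes of the lists passed by limma. At an unadjusted p under 0.05 there were 2 lower and 10 higher of 64 tested in tail fat, 1 lower and 2 higher of 56 in hypothalamus-labelled tissue and 0 of 59 in pituitary-labelled tissue.

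In tail fat 15 members were tested, of which 1 rose and 0 fell by limma, against 0.277% and 0.42% of all 11185 genes. Unadjusted, 3 members had p under 0.05, and 1596 of all genes did. The member that rose was MGST3, at 508, 1477, 517 and 406 TPM on CON and at 3515, 2196, 2393 and 2399 TPM on SA. All SA libraries lay above all CON libraries, with a change of 2.03 (SE 0.43, limma adjusted p = 0.0458). The call passed in 1 of 8 fits that left out 1 library, with an adjusted p of 0.00303 without CON 2, the highest CON library. It was lost without CON 1 (0.237), CON 3 (0.0934), CON 4 (0.189), SA 1 (0.114), SA 2 (0.0800), SA 3 (0.132) or SA 4 (0.104). The ratio of MGST1 to MGST3 was higher on SA in liver and lower on SA in tail fat, where it was 0.307 to 0.561 on CON and 0.0751 to 0.233 on SA. With quantile normalization the rise of MGST3 was 1.65 (limma adjusted p = 0.0278) and with mitochondrial and ribosomal transcripts removed 1.69 (0.0108), while the median of all genes went from −0.06 to 0.01 and −0.40.

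**Figure D4:**
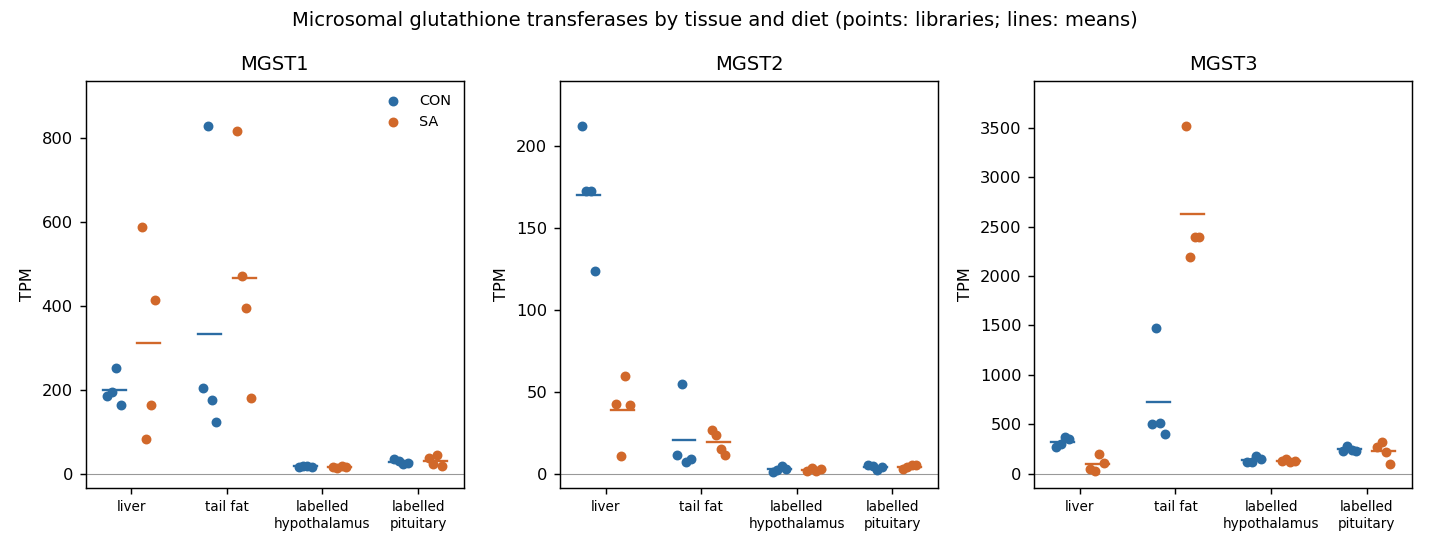
Levels of MGST1, MGST2 and MGST3 in TPM by tissue and diet, with 1 point per library and a line at the group mean. MGST3 lies at 2196 TPM or more in the tail fat SA libraries and at 197 TPM or less in the liver SA libraries.

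SULT1C4 was the other member of tail fat whose groups did not overlap. It was at 17.1, 19.6, 15.2 and 20.7 TPM on CON and at 3.80, 6.92, 4.71 and 1.34 TPM on SA. Each SA library was below each CON library, but the change of −2.001 did not pass (SE 0.46, limma adjusted p = 0.0593). With quantile normalization it was −1.98 (0.0266) and with mitochondrial and ribosomal transcripts removed −2.47 (0.0103). The groups failed to overlap in the lower direction for 5.05% and in the higher direction for 4.63% of all genes in tail fat. CYP2F1 (ENSOARG00020011411) was at 18.6, 70.4, 12.7 and 11.8 TPM on CON and at 4.82, 12.1, 7.44 and 0.43 TPM on SA. SA 2 lay within the CON range and the other SA libraries below it, and the change of −2.02 did not pass (limma adjusted p = 0.206).

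Other members of tail fat varied widely between the libraries of 1 diet. CYP1B1, an extrahepatic oxidase of oestradiol and aromatic compounds, was at 7.98, 19.3, 2.06 and 0.53 TPM on CON and at 17.1, 7.06, 10.8 and 16.6 TPM on SA (1.29, limma adjusted p = 0.405). CYP4V2 was at 128, 369.8, 48.0 and 42.1 TPM on CON and at 50.7, 80.5, 61.8 and 23.8 TPM on SA (−0.99, limma adjusted p = 0.502). MGST1 was at 205, 828, 175 and 125 TPM on CON and at 818, 472, 395 and 180.0 TPM on SA (0.72, limma adjusted p = 0.610). CON 2 was the highest CON library for each of these 3 genes, and it had the lowest mitochondrial share of the tail fat libraries, 22.6%.

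A few members of hepatocytes were found in 1 tail fat library. CYP2E1 was at 30.9 TPM in CON 4 and at 0 to 0.28 TPM in the other 7, and CYP3A24 at 12.7 TPM against 0 to 1.41 TPM. CYP1A2, SULT1E1 and UGT2B7 were highest in the same library, at 2.51, 1.62 and 0.33 TPM. So was albumin (ALB), at 473 TPM against 0.68 to 11.3 TPM. Of the 14 hepatocyte markers, 13 had their highest tail fat level there, at 0.195% to 1.75% of their liver CON mean. The other, ASGR1, was at 12.3 TPM in CON 4 and at 0.88 to 198 TPM in the other 7 libraries. CYP2E1 and CYP3A24 stood in CON 4 at 0.467% and 1.03% of their liver CON means. The tail fat CON means of these members rest on that library.

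**Figure D5:**
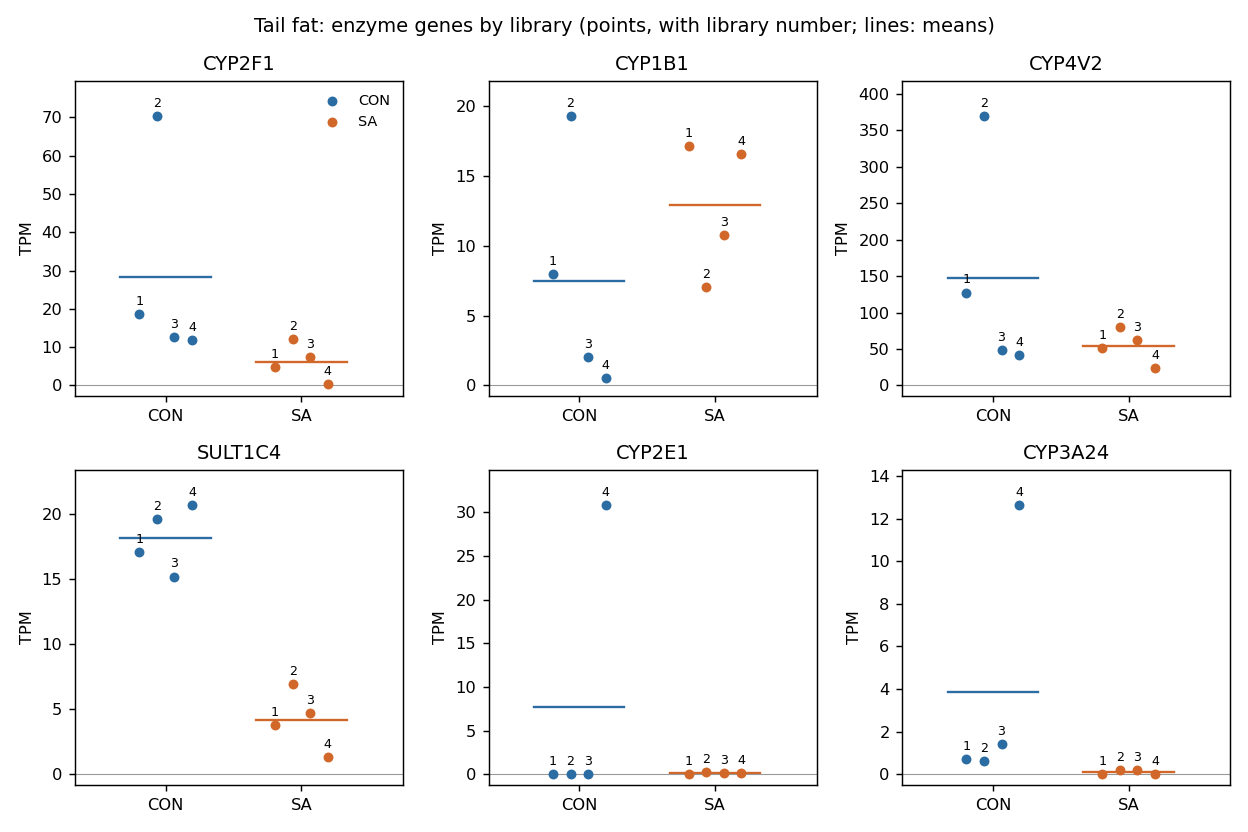
Levels in the 8 tail fat libraries of CYP2F1, CYP1B1, CYP4V2, SULT1C4, CYP2E1 and CYP3A24, with points numbered by library and a line at the mean of each diet. CYP2E1 and CYP3A24 are raised in CON 4 alone, at 30.9 and 12.7 TPM, and CYP2F1 and CYP4V2 are highest in CON 2.

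In hypothalamus-labelled tissue no member of the 13 tested passed by limma and none had an unadjusted p under 0.05, where 0% of all 14126 genes were called in either direction and 493 had an unadjusted p under 0.05. SULT4A1 (ENSOARG00020001258) was at 130.04, 159, 119 and 107 TPM on CON and at 166, 145, 115 and 159 TPM on SA. GSTA4 was at 116, 123, 105 and 132 TPM on CON and at 125, 134, 143 and 161 TPM on SA. The groups overlapped for both genes, and the 0.24 change of GSTA4 had an SE of 0.11 and a limma adjusted p of 0.947. CYP4V2 was at 3.50 to 6.27 TPM on CON and 5.84 to 7.06 TPM on SA (0.34, SE 0.15). MGST3 at 117 to 183 TPM and GSTM5 at 56.1 to 93.2 TPM on CON were the other abundant members. The libraries of this tissue differed in cell type markers. Oligodendrocyte markers summed to 5633, 5112, 24013 and 18783 TPM on CON and to 2207 to 7114 TPM on SA. The choroid plexus and ependyma markers summed to 2436 TPM in SA 2 (25.7 to 233 TPM on CON), of which TTR made up 2384 TPM. The part of these markers in the results of this tissue was not tested.

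In pituitary-labelled tissue no member of the 14 tested passed by limma and none had an unadjusted p under 0.05, with 0% of all 14472 genes called in either direction and 218 at an unadjusted p under 0.05. SULT4A1 was at 206, 216, 227 and 219 TPM on CON and at 215, 274, 175 and 71.6 TPM on SA. GSTA4 was at 168, 169, 161 and 178 TPM on CON and at 167, 199.8, 106 and 66.7 TPM on SA. For both genes the CON libraries were close together and SA 4, the library with 68.8% mitochondrial transcripts, was the lowest. In SA 4 the neuron markers summed to 1343 TPM (3481 to 4070 TPM on CON). The choroid plexus and ependyma markers summed to 3122 TPM (44.4 to 539 TPM on CON). Of that sum, transthyretin (TTR), which is also among the hepatocyte markers, made up 3081 TPM, so it speaks for 1 gene and not for the set. The part of these markers in the values above was not tested. The changes of SULT4A1 and GSTA4 were −0.39 and −0.44, beside a median of −0.27 over all genes, which was −0.02 without SA 4. The smallest limma adjusted p among members in this tissue was 0.747.

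Whether the effect of diet differed between the 4 tissues was tested by an F-test of the interaction in limma over the 32 libraries. Of the 27 members tested, 15 passed, where 27% of all 16360 genes did. A gene entered this test if it met the filter on low values in any tissue. SULT1B1, SULT1C2, SULT6B1, UGT2B7, CYP1A1 and CYP3A24 met it in liver alone and CYP2F1 in tail fat alone. For these the test mostly restates the change in that tissue, since the level elsewhere left little room for a change. The smallest adjusted p values were those of SULT1B1 (2.16e-06), at 0.6 TPM or less outside liver, and MGST3 (7.87e-05). The changes of MGST3 were −2.14 in liver and 2.03 in tail fat, with the limits on each call given above. GSTZ1, CYP3A24 and UGT1A9 passed as well (limma adjusted p = 0.00129, 0.00253 and 0.00448). CYP2E1, CYP1A2, SULT1E1, GSTM5 and CYP4V2 were among the 12 members tested that did not pass. SULT1C4, with changes of −1.85 in liver and −2.001 in tail fat on the log2 scale, passed at 0.00408, and its changes in the 2 brain-labelled tissues did not pass.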

How the data were processed

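Per the labels' protocols, TRIzol extraction and oligo(dT) selection of messenger RNA preceded stranded libraries and NovaSeq sequencing. The TPM values were made and deposited by the authors as 1 table of 32 libraries, with fastp, HISAT2 and RSEM, per the submitters' processing notes. For the build, annotation, strand setting and tool versions, the sources used here give nothing. Columns summed to between 936939 and 987320, TPM keeps no depth, and 8 columns of group means were not used.

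Genes that reached 1 TPM in 4 or more libraries entered limma 3.58.1 (R 4.3.3) as log2(TPM + 1), with moderation by a mean trend and robust settings. Tables and plots were made with Python 3.11.15, pandas 2.3.3 and matplotlib 3.10.9. Each tissue was fitted alone for diet, the 16 CON libraries for tissue and the 32 libraries for the interaction with 3 degrees of freedom. P-values are two-sided, adjusted by Benjamini-Hochberg over all genes of a fit, with a threshold of 0.05. In the diet fits they measure the spread between the 4 sheep of a diet. The main tissue and interaction fits treated all libraries as independent, although tissues of the same sheep may be among them. The labels do not say which libraries share a sheep. The limma steps were tested on simulated data with independent libraries and no shift across all genes. That test does not cover a shift such as that of all genes in liver.

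The members, the lists and the tests were chosen with earlier results of these data known. Members named are the 3 of highest CON mean per family in liver, those of smallest p per direction, and the 4 of highest CON mean in each other tissue. Others, such as GSTM3 in liver, SULT1C2, CYP1B1 and the members in tail fat CON 4, were chosen after their values were seen. From each list, genes among the 3 of highest CON mean in liver are named, and AHR, NR1I2, NR1I3 and POR were named as a panel. Alternatives were a pseudocount of 0.1, no filter, quantile normalization, removal of 82 mitochondrial and ribosomal rows with rescaling to 1000000, array weights, a replicate block, a joint fit and the omission of each library. The omission of tail fat CON 2 and SA 1 together was chosen after seeing the data. A RefSeq gene table of ARS-UI_Ramb_v3.0 was used for symbols and overlaps. It held 25 symbols under the rule, of which 14 are members. The other 11, such as CYP2A6, CYP2D6 and UGT1A1, stand on no named row and are not analysed here.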

Additional observations from a re-analysis of the deposited data

Results flagged for a closer look

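In 12 of 80 groups of 4 libraries, 1 library of a member lay far from the other 3, by a ratio of its gap to the range of the group above Dixon's critical value. That value is set for about 1 in 20 groups of independent, normally distributed values. The groups here are TPM values, share libraries between members and include zeros, so that rate cannot be set against the 12. In liver the ratio was 0.831 for CYP2E1 in CON 1 (10707 TPM beside 4861 to 5851), 0.911 for SULT1C2 in CON 1 and 1.0 for SULT6B1 in CON 3, each the highest. Liver SA 2 was the lowest for CYP4V2 (0.851) and UGT1A9 (0.875) and the highest for SULT6B1 (0.944). In tail fat CON 2 was the highest for CYP2F1 (0.883), MGST1 (0.886) and MGST3 (0.896), and SA 1 the highest for MGST3 (0.846). In pituitary-labelled tissue CON 4 was the lowest for GSTM5 (0.883) and CON 2 the highest for MGST3 (0.869).

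The change with diet differed between the 4 tissues for 15 of 27 members tested by limma's interaction test, where 27% of all 16360 genes passed. The adjusted p values of the 15 are given by family. Among P450 genes they were 0.00129 for CYP1A1, 0.0186 for CYP2F1, 0.00689 for CYP2R1, 0.0349 for CYP2U1 and 0.00253 for CYP3A24. Among UGT genes they were 0.00448 for UGT1A9 and 0.0236 for UGT2B7. Among GST genes they were 0.00484 for GSTM3, 0.00129 for GSTZ1, 0.00601 for MGST2 and 7.87e-05 for MGST3. Among SULT genes they were 2.16e-06 for SULT1B1, 0.0132 for SULT1C2, 0.00408 for SULT1C4 and 0.0154 for SULT6B1.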

How the results depend on the processing

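No change of a named member that had passed turned its sign under any alternative. The 15 members lower in liver became 7 with quantile normalization and 6 with mitochondrial and ribosomal rows removed, and 12 to 15 with 1 library left out. The 1 higher became 2 under both scalings. The 0 members lower in tail fat became 1 with quantile normalization, 2 with the removal, 1 with array weights, 3 in the joint fit, 1 without CON 2 and SA 1 together, and 0 to 1 with 1 library left out. The 1 higher became 0 without a filter, 2 with array weights, 3 in the joint fit, and 0 to 1 with 1 library left out. The 4 members lower in liver than in tail fat became 7 with quantile normalization, 8 with the removal and 2 to 4 with 1 library left out. The cause was not tested. The interaction was called for 14 to 16 members. Over all genes, the tail fat counts of 47 lower and 31 higher became 0 and 0 without a filter, 229 and 186 with quantile normalization, 1204 and 170 with the removal, 902 and 1055 with array weights, and 1180 and 758 in the joint fit. With 1 library left out they ran from 0 and 3 without CON 1 to 80 and 181 without CON 2.

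Same-numbered libraries of the 2 diets correlated at −0.185 to 0.156 in liver, −0.342 to 0.249 in tail fat, −0.0515 to 0.289 in hypothalamus-labelled and −0.223 to 0.0481 in pituitary-labelled tissue. The diets were fed to different sheep, so these values cannot show a shared animal. Across tissues on CON, same-numbered libraries of liver correlated at −0.0448 to 0.149 with tail fat. With hypothalamus-labelled tissue they correlated at −0.0893 to −0.0152 and with pituitary-labelled tissue at −0.107 to 0.0302. Whether a number marks the same sheep across tissues is not given by the labels. With the replicate block, 16 members were lower and 1 higher in liver, 2 lower and 1 higher in tail fat, 0 in the others, and 15 passed the interaction. All-gene counts with the block in tail fat were 241 lower and 172 higher.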
